A study of Mus musculus with 35 samples.

Results

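Glycolysis, glycogen and lactate genes were followed in astrocytes sorted from mouse cortex after lipopolysaccharide (LPS) or saline. The members are genes whose name in the deposited table equalled 1 of 33 listed names, from the glucose transporter Slc2a1 to the glycogen phosphorylases. Of these, 32 were among the 19573 genes of the table, and Slc16a7 was not analysed here. All 32 passed the filter on low values. Cells came from Aldh1l1egfp mice of postnatal day 30 to 35, whose astrocytes make a green fluorescent protein driven by the gene Aldh1l1, and all 8 groups carry this reporter. Mice received saline or 5 mg/kg LPS, an outer-membrane molecule of bacteria used to provoke inflammation of the whole body. Females were taken at 3 h (4 saline and 5 LPS libraries), at 24 h (5 saline and 4 LPS) and at 72 h (4 saline and 3 LPS), and males at 24 h (5 saline and 5 LPS). Values are FPKM, fragments scaled to transcript length and library size, so levels of different genes can be compared per length. Fold changes are log2 differences of FPKM + 1, with their standard error (SE), from limma over all 35 libraries. A gene is called higher or lower at an adjusted p under 0.05 over the 19426 genes tested.

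Astrocytes take up glucose from the blood through Slc2a1 (GLUT1), trap it with hexokinase and break it down to pyruvate. Much of the pyruvate becomes lactate, which leaves the cell through monocarboxylate transporters and can feed neurons. Astrocytes also hold most of the glycogen of the brain, which glycogen phosphorylase breaks down when demand rises. The speed of the upper pathway is set largely at phosphofructokinase, whose strongest activator, fructose 2,6-bisphosphate, is made by the PFKFB enzymes.

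FPKM summed to between 456417 and 565592 per library, and the read depth is unknown. The 12 astrocyte markers together ranged from 5119 to 10380 FPKM, and other cell types were present at lower sums. Among these were 223 to 2192 FPKM for 10 oligodendrocyte markers and 49.9 to 1787 FPKM for 5 erythroid markers. The 15 microglia markers summed to 51.4 to 1036 FPKM. Mitochondrially encoded genes made up 4.86% to 24.4% of each library's sum. At 24 h, 11 of the libraries were deposited in single precision and the others in double precision, and values within number formats are given beside some of the 24 h results. The fold changes of the limma fit are not adjusted for it. The labels do not say whether each library came from a separate mouse, so each p-value speaks only to the spread among libraries.

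The aldolase Aldoc, which splits fructose bisphosphate and is an astrocyte-enriched isoform, had the highest level of the members, with a median of 1622 FPKM over the 18 saline libraries (lowest 967.5, highest 4370). Ldhb, the lactate dehydrogenase subunit of heart and brain, followed at a median of 368 FPKM, the aldolase Aldoa at 304 FPKM and the enolase Eno1 at 247 FPKM. In all, 9 members had a saline median of at least 100 FPKM. Regulatory and inducible genes stood far lower, with medians of 18.6 FPKM for Pfkfb3, 7.05 FPKM for the pyruvate dehydrogenase kinase Pdk1 and 0.939 FPKM for the inducible hexokinase Hk2. The lactate exporter Slc16a3 (MCT4) was lowest at 0.303 FPKM. Aldoa, Gapdh, Pgk1, Pgam1, Eno1 and Ldha have pseudogenes or close copies named after them in the annotation, so their values are uncertain to the extent that reads were split between copies.

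Isoenzymes of a step differed widely in level. Aldoc made up a median of 86.2% of the summed aldolase FPKM over the 35 libraries (range 81.4% to 92.2%). Ldhb made up 73.5% of lactate dehydrogenase (64.6% to 81.1%), and the muscle-type subunit Ldha made up the rest. Aldoa, Ldha and Eno1 are among the members with named copies, so the shares in their families are uncertain to that extent. Hk2 took 5.63% of hexokinase FPKM (2.26% to 29.0%), against the constitutive Hk1. Phosphofructokinase was shared, with a median of 47.7% for Pfkp, 41.1% for Pfkm and 10.4% for Pfkl. Of the glycogen phosphorylases among the members, the brain form Pygb exceeded the muscle form Pygm. The share of Pygm in the FPKM of both had a median of 24.8% (14.5% to 46.5%). Among Pdk1, Pdk2 and Pdk4, kinases that switch off pyruvate dehydrogenase, Pdk2 took a median of 76.6%. The neuron-enriched enolase Eno2 stood at 4.79% of enolase FPKM and Slc16a3 at 1.07% of the FPKM of both monocarboxylate transporters.

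**Figure D1:**
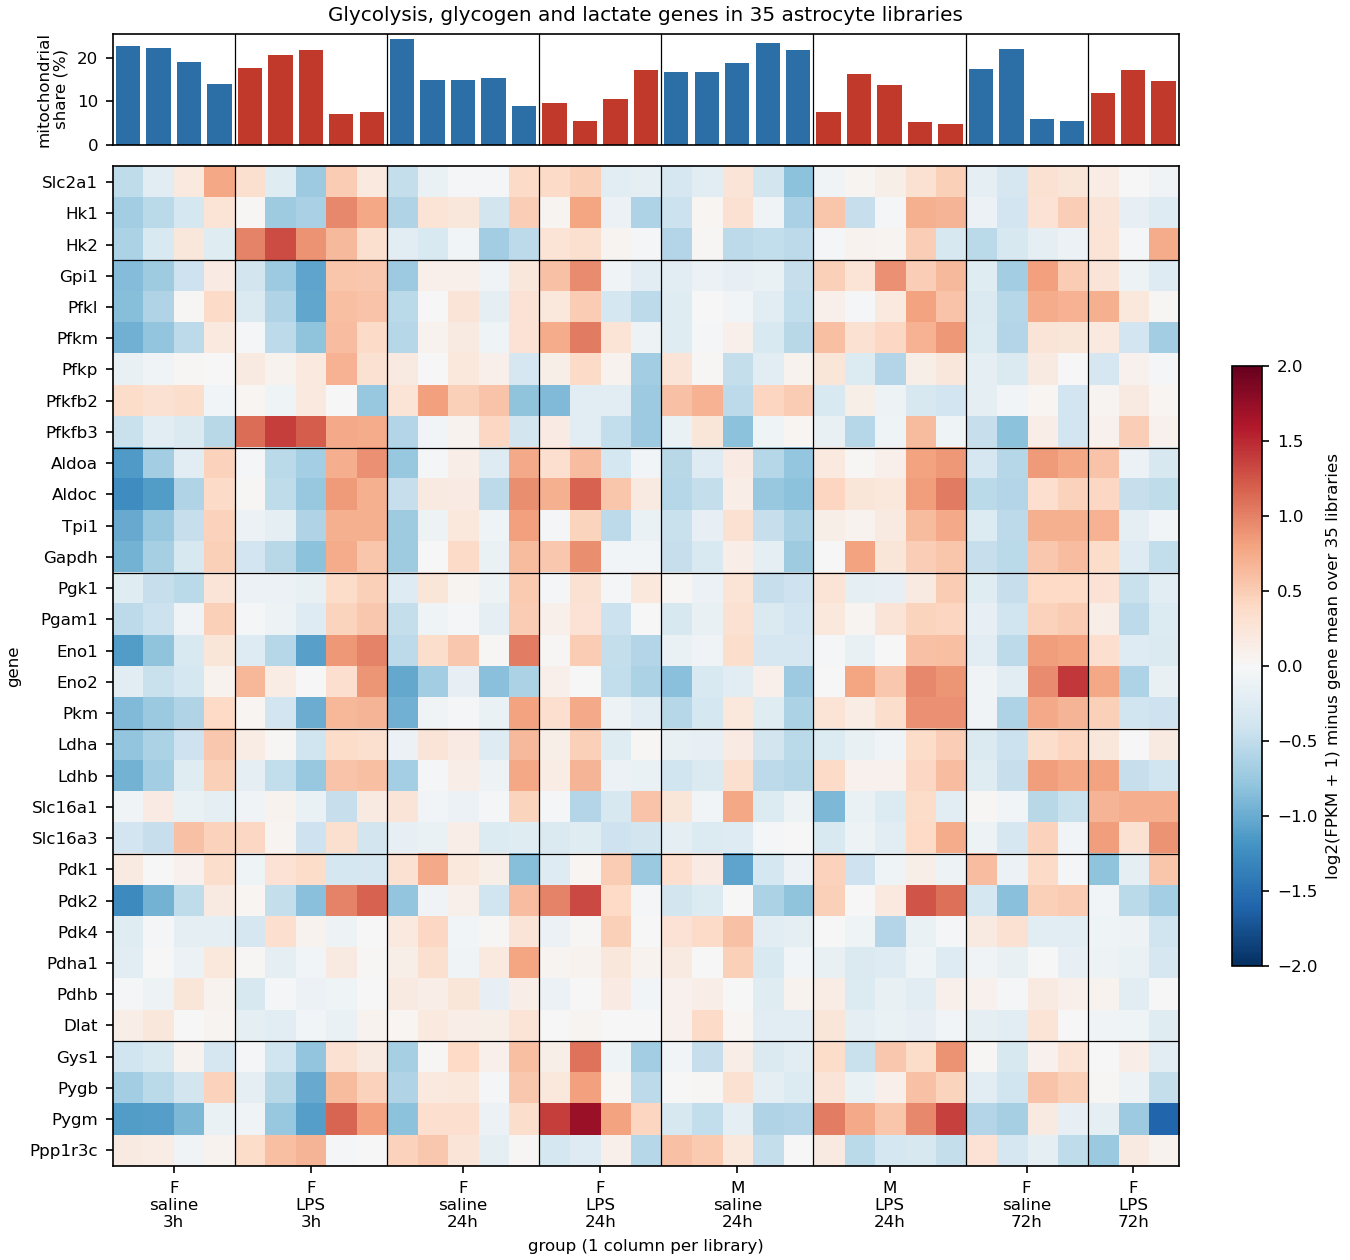
Lower panel: log2(FPKM + 1) of each of the 32 members (1 line per gene, black lines between roles in the pathway) minus the gene's mean over 35 libraries, with 1 column per library and black lines between groups (F female, M male). Upper panel: share of mitochondrial genes in the summed FPKM of each library, in percent. Most glycolytic genes are red together in libraries with a short bar, in saline (blue bars) and LPS (red bars), while Pfkfb3 and Hk2 are red in the LPS libraries at 3 h.

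Most members moved together between libraries of the same group, and did so against the mitochondrial share. Within groups, 22 of the 32 members had a negative slope on that share at an adjusted p under 0.05 (limma, against 33% of all genes tested), and 0 had a positive slope (16.1% of all genes). Each additional 10 percentage points of mitochondrial share went with a log2 difference of -1.01 for Pdk2, -0.97 for Eno1, -0.90 for Aldoa, -0.86 for Aldoc and -0.83 for Pygm. The slopes of Hk2 (0.03) and Pfkfb3 (-0.13) did not pass the test. Spread between libraries of a group was ordinary for these data, with a median SD of 0.42 on the log2 scale over the members against 0.41 over all genes. It was smallest in Pdhb, a subunit of pyruvate dehydrogenase, at 0.15, and largest in Pdk2, at 0.60.

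**Figure D2:**
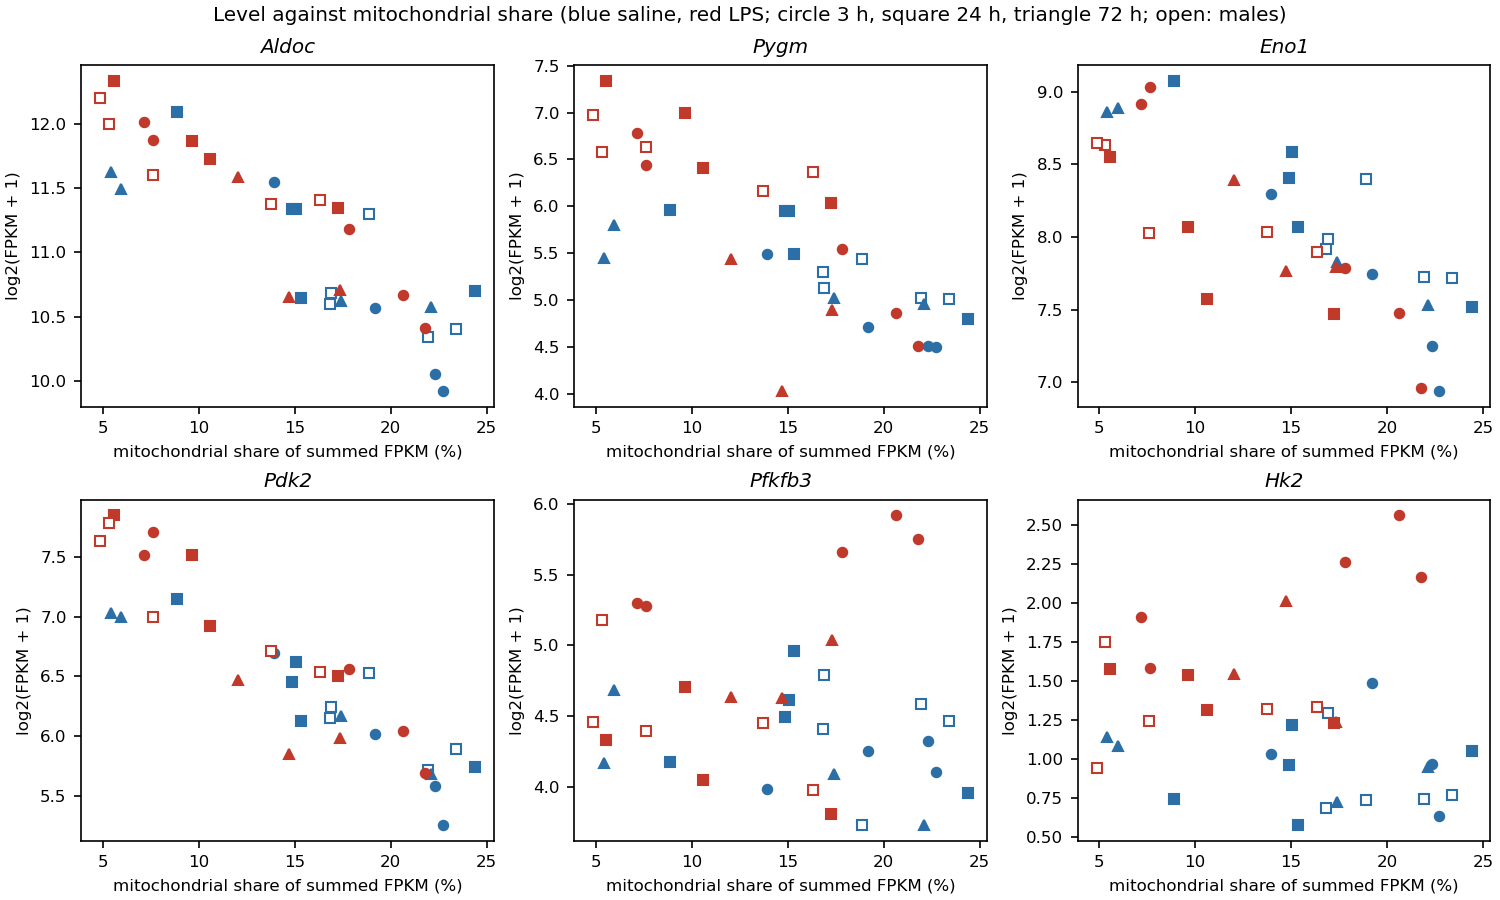
Level, as log2(FPKM + 1), of Aldoc, Pygm, Eno1, Pdk2, Pfkfb3 and Hk2 in each library against the share of mitochondrial genes in its summed FPKM (blue saline, red LPS, circles 3 h, squares 24 h, triangles 72 h, open symbols males). Aldoc, Pygm, Eno1 and Pdk2 fall from left to right, and Pfkfb3 at 3 h of LPS lies above all other libraries across that range.

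At 3 h Pfkfb3 and Hk2, which act on the committed and the first step of glycolysis, rose in the LPS libraries, and 2 of 32 members were called higher in all (1.94% of all genes tested). Called lower were 0 members, against 0.443% of all genes, and 0 members were lower at an unadjusted p under 0.05. In the authors' deposited table, made with DESeq2, 3 members were higher (2.61% of its genes), namely Hk2, Pfkfb3 and Eno2, and 0 were lower (0.821%).

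Pfkfb3 (chromosome 2, 11471433 to 11554077, minus strand, mm10) makes a form of the PFKFB enzyme that favours synthesis of fructose 2,6-bisphosphate. Its FPKM was 16.2, 19.1, 18.1 and 14.9 in the 4 saline libraries at 3 h. In the 5 LPS libraries it was 49.6, 59.6, 52.8, 38.3 and 37.9. Every LPS library was well above every saline library, and also above every library of the other groups. The log2 fold change was 1.41 ± 0.24 (SE, adjusted p = 1.69e-04, limma), and it stayed past the threshold in each of 18 alternatives, at adjusted p-values from 7.43e-05 to 0.00215. Its sister gene Pfkfb2 had a log2 fold change of -0.37 ± 0.25 (adjusted p = 0.612, limma). The share of Pfkfb3 in the summed FPKM of both was 49.6% to 55.4% in saline and 75.6% to 84.5% in LPS.

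Hk2 (chromosome 6, 82725025 to 82774454, minus strand, mm10) is a hexokinase that binds mitochondria and is induced in many tissues. Its FPKM was 0.555, 0.956, 1.81 and 1.05 in saline. In LPS it was 3.79, 4.92, 3.49, 2.76 and 2.0. All LPS values lay above all saline values, at levels that remained below those of Hk1. The log2 fold change was 1.07 ± 0.21 (adjusted p = 0.00133, limma), but 0.0693 when only the 2 groups compared were fitted. The share of Hk2 in hexokinase FPKM was 4.05% to 10.3% in saline and 5.29% to 29.0% in LPS, so these shares overlapped. Hk1 itself varied from 12 to 40.8 FPKM among the LPS libraries.

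The stretches of 250 bases before the annotated starts of Pfkfb3 and Hk2 are shown because both genes rose together, and because hypoxia-inducible factors, which are known to act on glycolytic genes, bind a core of ACGTG. Capitals mark that core on either strand (ACGTG or CACGT), and where matches overlap, as in CACGTG, the joined letters. For Pfkfb3 the table held 2 starts, and the window with more matches is printed (RefSeq, GRCm38.p6, chr2:11502091-11502340, minus strand). This window lies inside the gene. The other (chr2:11553930-11554179) held 1 match and spans position 11554077, where the gene begins on the minus strand. The window of Hk2 is chr6:82774455-82774704, minus strand.
Pfkfb3: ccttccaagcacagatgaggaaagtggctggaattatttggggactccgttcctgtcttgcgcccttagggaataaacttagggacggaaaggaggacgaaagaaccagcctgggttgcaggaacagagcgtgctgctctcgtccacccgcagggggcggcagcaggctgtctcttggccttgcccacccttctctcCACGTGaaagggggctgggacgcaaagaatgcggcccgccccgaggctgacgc
Hk2: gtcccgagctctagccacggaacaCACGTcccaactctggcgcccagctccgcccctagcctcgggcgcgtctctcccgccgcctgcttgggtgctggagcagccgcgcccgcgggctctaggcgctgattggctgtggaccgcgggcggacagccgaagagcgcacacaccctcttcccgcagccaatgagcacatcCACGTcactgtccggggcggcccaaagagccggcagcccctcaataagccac

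The core was present in 21 of 48 windows of the members (43.8%), from 17 of 32 genes, and in 16.6% of all 32851 windows of this length. The windows of all genes were not matched to the members in level or base composition, and a link of the core to LPS was not tested. The Pfkfb3 window held it as CACGTG, which reads the same on both strands and so counts at 2 positions, and the Hk2 window held 2 separate copies of CACGT. Pfkfb3 and Hk2 share this feature with Ldha, which had 5 matches in 1 of its windows and a log2 fold change of 0.42 ± 0.25 at 3 h (adjusted p = 0.534, limma). A match describes letters and not binding.

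At 3 h the median log2 fold change of the 32 members was 0.29, against 0.02 for all genes, and 25 members had a positive value (52.0% of all genes). With LPS replicates 4 and 5 left out, which had the smallest mitochondrial shares of that group, the median of the members was 0.01 (0.05 with the mitochondrial share as a covariate), while Pfkfb3 (1.61) and Hk2 (1.30) were called with larger values. LPS and saline libraries did not overlap, with LPS higher, for Pfkfb3, Hk2 and the phosphofructokinase Pfkp (2.98% of all genes), and for 0 members with LPS lower (1.7%). Pfkp had 108 to 123 FPKM in saline and 126 to 194 FPKM in LPS, with a log2 fold change of 0.33 ± 0.20 (adjusted p = 0.551, limma). Slc2a1, by contrast, stood at -0.05 ± 0.25 and the lactate exporter Slc16a1 (MCT1) at -0.02 ± 0.23. Markers of other cells moved in this comparison as well. Of 13 endothelial markers 4 were lower, with summed levels of 306 to 387 FPKM in saline and 132 to 279.6 FPKM in LPS, and of 15 microglia markers 2 were lower (242 to 473 against 153 to 277 FPKM). Neuron markers gave 0 calls among 12, with summed levels of 215 to 288 FPKM in saline and 248 to 365 FPKM in LPS. Their part in the results on Pfkfb3 and Hk2 was not tested, and in bulk samples fewer cells of a type and less RNA per cell cannot be told apart.

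**Figure D3:**
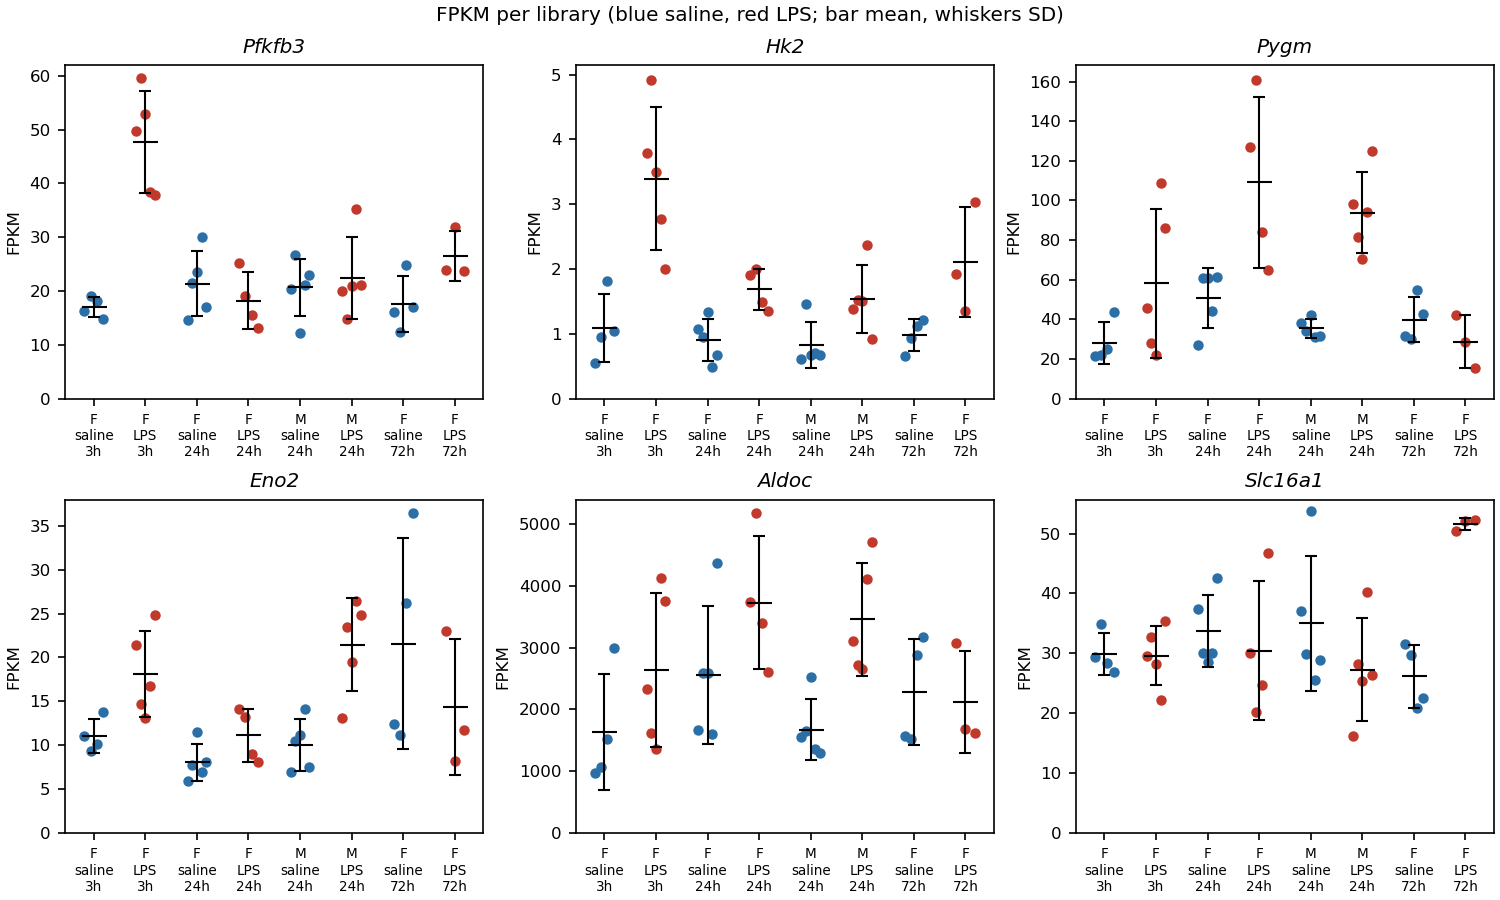
FPKM of Pfkfb3, Hk2, Pygm, Eno2, Aldoc and Slc16a1 in each library (points, blue saline, red LPS), with the group mean (bar) and SD (whiskers) for the 8 groups. Pfkfb3 reaches 37.9 to 59.6 FPKM at 3 h of LPS, Pygm is higher in LPS than in saline at 24 h in both sexes, and the group mean of Slc16a1 is highest in LPS at 72 h, although 1 male saline library (53.8 FPKM) lies above the 3 libraries of that group.

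By 24 h the rise of Pfkfb3 was no longer seen in females. Its FPKM was 14.5, 21.5, 23.5, 30.1 and 17.1 in saline and 25.1, 19.1, 15.5 and 13.0 in LPS, ranges that overlap. The LPS effect at 24 h was lower than that at 3 h by a tested difference of -1.63 ± 0.34 (log2, adjusted p = 0.00874, limma). Pfkfb3 was the 1 member called lower in this difference (0.417% of all genes), and 0 members were called higher (0.293%, with 0 at an unadjusted p under 0.05). Within the number formats of the 24 h libraries the difference was -1.41 for single precision (adjusted p = 0.0653) and -2.17 for double precision (adjusted p = 0.103, with 1 LPS library), both by limma. Hk2 had a difference of -0.56 ± 0.30 (adjusted p = 0.631, limma). The authors' deposited table does not hold this comparison.

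In females at 24 h, 0 members were called higher (2.54% of all genes) and 0 lower (0.798%) by limma. At an unadjusted p under 0.05, 3 were higher and 2 lower. The authors' deposited table called 1 member higher, Pygm (2.86% of its genes), and 0 lower (1.41%). The median log2 fold change of the members was 0.02, against 0.05 for all genes, with 17 of 32 positive (56.1% of all genes). That median was 0.20 within single-precision libraries, -0.31 within double-precision libraries (1 LPS library) and -0.21 with the mitochondrial share as a covariate. LPS libraries lay above saline libraries without overlap for Hk2 and Pygm (3.32% of all genes), and below for 0 members (1.75%).

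Pygm (chromosome 19, 6384399 to 6398459, plus strand, mm10) makes the muscle form of glycogen phosphorylase, which releases glucose units from glycogen. In females at 24 h its FPKM was 26.8, 60.8, 61.0, 44.1 and 61.4 in saline. In LPS it was 127, 161, 84.2 and 64.8. The lowest LPS library was just above the highest saline library. The log2 fold change was 1.07 ± 0.36 (adjusted p = 0.106, limma), and 1.28 (adjusted p = 0.0405) without LPS replicate 4. Within single-precision libraries it was 1.35 (adjusted p = 0.126), and within double-precision libraries, where LPS replicate 4 is the 1 LPS library, 0.31 (adjusted p = 1). With the mitochondrial share as a covariate it was 0.65 (adjusted p = 0.0997). The authors' deposited table gives 0.92 with an adjusted p of 0.0199. Hk2 was 1.07, 0.951, 1.33, 0.489 and 0.676 FPKM in saline and 1.91, 1.99, 1.49 and 1.35 FPKM in LPS, so that the groups were apart by a small margin. Its log2 fold change was 0.51 ± 0.21 (adjusted p = 0.237, limma).

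Lower values in females at 24 h concerned a kinase and a glycogen regulator. Pfkfb2 was at 15.3, 22.8, 17.9, 19.1 and 6.72 FPKM in saline and at 6.29, 10.6, 10.5 and 7.21 FPKM in LPS, and the groups overlapped through saline replicate 5. Its log2 fold change was -0.78 ± 0.25 (adjusted p = 0.0948, limma). Ppp1r3c, which targets protein phosphatase 1 to glycogen and so favours its synthesis, had -0.49 ± 0.23 (adjusted p = 0.321, limma). Saline replicate 5 also had the smallest mitochondrial share of its group, 8.88%.

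In males at 24 h, Pygm, Eno2 and Aldoc were called higher. These 3 of 32 members are near the share of all genes called higher (7.08%). At an unadjusted p under 0.05, 12 members were higher. Within either number format, and with the mitochondrial share as a covariate, 0 members were called higher. By limma, 0 members were called lower (1.82% of all genes), with 2 at an unadjusted p under 0.05. The authors' deposited table called 7 members higher (8.96% of its genes), namely Gpi1, Pfkm, Aldoc, Gapdh, Eno2, Pdk2 and Pygm, and 2 lower (10.2%), Pfkfb2 and Ppp1r3c. The median log2 fold change was 0.45, against 0.18 for all genes, and 25 members were positive (63.9% of all genes). The median of the members was 0.09 within single-precision and 0.72 within double-precision libraries. It was 0.16 without the 3 LPS libraries of lowest mitochondrial share, and turned to -0.14 with that share as a covariate. All genes also leaned upward in this comparison, with 1376 called higher and 353 lower, and quantile normalization moved their median by -0.17 and the split to 805 and 713.

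Pygm in males was 38.3, 33.9, 42.3, 31.2 and 31.5 FPKM in saline. In LPS it was 98.0, 81.4, 70.6, 94.3 and 125 FPKM. There was a wide gap between the groups. This gave a log2 fold change of 1.36 ± 0.34 (adjusted p = 0.0108, limma), and 1.21 and 1.56 within single- and double-precision libraries (adjusted p = 0.361 and 0.143). The window before its start, chosen for comparison with the genes of 3 h, held 1 match to the core (chr19:6384158-6384407, plus strand, RefSeq, GRCm38.p6). The windows of Eno2 and Aldoc, also called in males, held 0 matches and are not printed.
Pygm: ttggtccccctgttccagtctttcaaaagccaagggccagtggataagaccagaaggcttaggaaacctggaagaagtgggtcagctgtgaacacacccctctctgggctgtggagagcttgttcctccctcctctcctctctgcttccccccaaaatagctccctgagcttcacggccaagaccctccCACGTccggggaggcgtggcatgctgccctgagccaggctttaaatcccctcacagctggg

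Pygb, the other phosphorylase gene among the members, was not called. It had a log2 fold change of 0.27 ± 0.28 in males and 0.08 ± 0.30 in females at 24 h (adjusted p = 0.519 and 0.951, limma). The share of Pygm in the summed FPKM of Pygb and Pygm is a ratio within each library and leaves out the liver form Pygl. It was 20.8% to 23.3% in male saline and 33.2% to 42.1% in male LPS. In females it was 24.4% to 29.6% in saline and 39.3% to 46.5% in LPS at 24 h. Both pairs of groups were apart, and so were those at 3 h, where the share was 20.1% to 21.9% in saline and 24.7% to 35.7% in LPS. At 72 h the groups overlapped, with 19.5% to 23.9% in saline and 14.5% to 24.8% in LPS. Pygb and Pygm had slopes on the mitochondrial share of -0.76 and -0.83 per 10 percentage points, and the part of that share in this ratio was not tested.

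Eno2 (chromosome 6, 124760053 to 124769673, minus strand, mm10), an enolase known as a neuronal isoform, was 6.88, 10.4, 11.1, 14.1 and 7.48 FPKM in male saline. In male LPS it was 13.1, 23.5, 19.5, 26.4 and 24.8 FPKM. Saline replicate 4 was above LPS replicate 1, and the other libraries were apart. The log2 fold change was 1.03 ± 0.28 (adjusted p = 0.02, limma), and 0.85 and 1.11 within single- and double-precision libraries (adjusted p = 0.466 and 0.177). The call was lost without saline replicate 1 or 5 (0.92 and 0.95, adjusted p = 0.0632 and 0.0626) and without LPS replicate 4 or 5 (0.95 and 0.97, adjusted p = 0.0596 and 0.0629). Neuron markers moved beside it. Of 12, 4 were called higher and 0 lower, their sum was 146 to 288 FPKM in saline and 230.2 to 470.1 FPKM in LPS, and Rbfox3, a defining neuronal gene, was 2.0 to 4.04 against 6.31 to 8.37 FPKM. Their part in the Eno2 result was not tested.

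Aldoc (chromosome 11, 78322968 to 78327781, plus strand, mm10) was 1546, 1644, 2518, 1353 and 1295 FPKM in male saline. In male LPS it was 3110, 2711, 2655, 4105 and 4720 FPKM. The groups did not overlap, although saline replicate 3 came close. Aldoc thus had a log2 fold change of 1.05 ± 0.34 (adjusted p = 0.0489, limma), next to the threshold, and the call was lost in 15 of 21 alternatives. Among them were the fits without saline replicate 1, 2, 4 or 5 (1.04, 1.06, 0.99 and 0.97, adjusted p = 0.0914, 0.0769, 0.0815 and 0.115). The fits without LPS replicate 1, 4 or 5 lost it as well (1.08, 0.98 and 0.93, adjusted p = 0.0654, 0.111 and 0.137). Within the number formats it was 0.65 and 1.49 (adjusted p = 0.656 and 0.166).

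Further members without overlap in males, all with LPS higher, were Gpi1, Pfkm and Pdk2, which with Aldoc and Pygm made 5 (9.55% of all genes), and 0 lay below (2.12%). Pfkm, a phosphofructokinase, ranged from 72.2 to 114 FPKM in saline and from 132 to 194 FPKM in LPS, with a log2 fold change of 0.78 ± 0.26 (adjusted p = 0.0537, limma). Pdk2 had 51.5 to 91.4 FPKM in saline and 91.7 to 219 FPKM in LPS (1.02 ± 0.36, adjusted p = 0.0617). Its share among the kinases was 68.6% to 74.0% in saline and 80.3% to 90.0% in LPS. In females the shares overlapped, at 63.5% to 84.3% in saline and 76.6% to 89.8% in LPS at 24 h. They also overlapped at 3 h (61.3% to 80.4% against 64.0% to 89.6%) and 72 h (63.0% to 85.1% against 70.1% to 80.6%). Per 10 percentage points of mitochondrial share the slope was -1.01 for Pdk2, 0.07 for Pdk1 and 0.03 for Pdk4, and its part in this ratio was not tested. The isomerase Gpi1 had 0.79 ± 0.29 (adjusted p = 0.076) and the pyruvate kinase Pkm 0.84 ± 0.33 (adjusted p = 0.09). In the triose steps all 4 members were positive, with a median of 0.76, and 1 was called. The pyruvate dehydrogenase subunits Pdha1 (-0.26), Pdhb (-0.08) and Dlat (-0.07) were near or below 0, as was Slc16a1 (-0.35, adjusted p = 0.26).

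The mitochondrial share differed between the groups of males, with 16.8% to 23.4% in saline and 4.86% to 16.3% in LPS, and did not overlap. With the share as a covariate, Pygm had a log2 fold change of 0.53 (adjusted p = 0.312), Eno2 0.56 (0.365) and Aldoc 0.19 (0.796), and 0 members were called higher. Eno1 was then called lower, in males and in females. Without LPS replicates 1, 4 and 5, which had the lowest shares, the values were 1.09 for Pygm, 1.07 for Eno2 and 0.73 for Aldoc (adjusted p = 0.364, 0.252 and 0.552, limma). In females at 24 h the share overlapped, with 8.88% to 24.4% in saline and 5.57% to 17.3% in LPS. Of 15 microglia markers in males, 5 were called higher and 2 lower, with sums of 73.0 to 273 FPKM in saline and 164 to 399.8 FPKM in LPS. Of 8 listed blood leukocyte markers 3 were measured, while Camp, Cd3e, Ly6g, Ngp and Retnlg were absent from the deposited table. Of the 3 measured, 2 were called higher at 24 h in each sex. Sums of the 3 were 0.367 to 2.52 FPKM in saline and 6.97 to 19.5 FPKM in LPS in males, and 0.169 to 3.84 and 3.03 to 15.3 FPKM in females. The part of these cells was not tested.

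**Figure D4:**
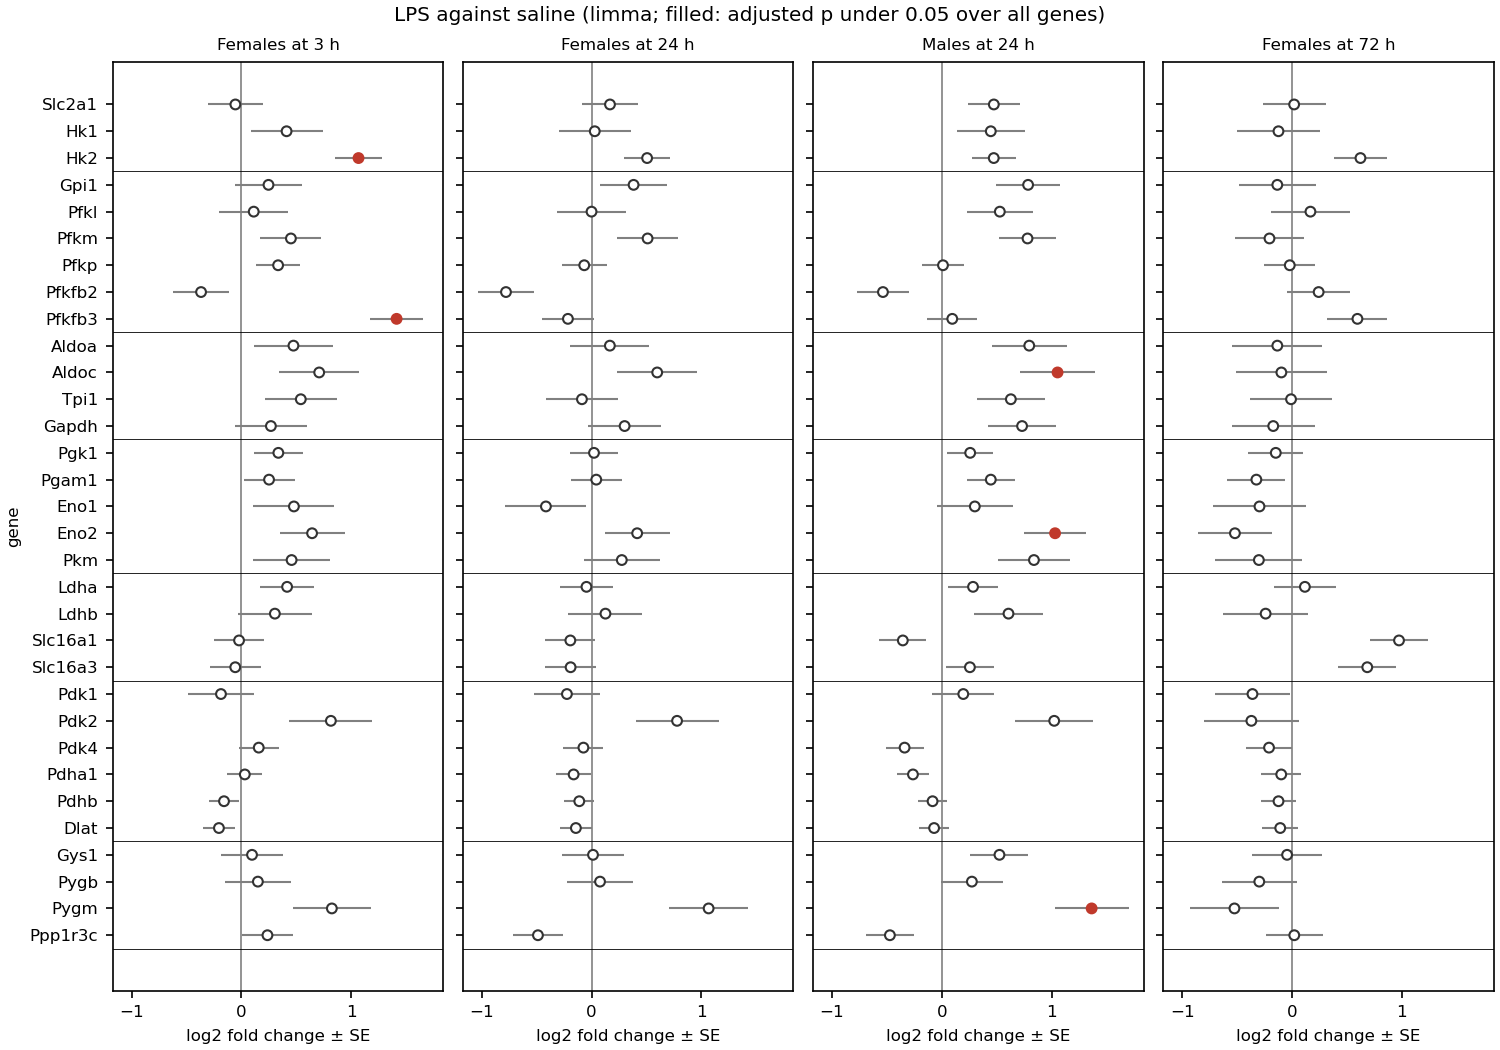
Log2 fold change of LPS against saline with its SE for the 32 members, ordered along the pathway (lines between roles), in females at 3 h, 24 h and 72 h and males at 24 h. Filled red points passed an adjusted p under 0.05 over all genes (limma): Hk2 and Pfkfb3 at 3 h, and Aldoc, Eno2 and Pygm in males.

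The sexes were not shown to differ. The LPS effect in males minus that in females gave 0 calls in either direction among the members and 0% among all genes by limma, and 0 members reached an unadjusted p under 0.05. The authors' deposited table does not hold that difference. The difference was 0.30 ± 0.49 for Pygm, 0.62 ± 0.41 for Eno2 and 0.46 ± 0.50 for Aldoc (adjusted p = 0.949, 0.945 and 0.945). Between male and female saline libraries at 24 h, 0 members were called higher (0.0309% of all genes) and 0 lower (0.0206%), and 0 reached an unadjusted p under 0.05. Between the sexes in saline, the authors' deposited table called 0 members (0.0261% of its genes higher in females, 0.0471% lower). Between the sexes in LPS at 24 h it also called 0 members (0.196% higher in females, 0.843% lower). Eno2 was nearest there, at -0.80 in females against males (adjusted p = 0.0551, DESeq2). Pygm was at 33.9 FPKM in male saline and 60.8 FPKM in female saline by median, with overlapping ranges.

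At 72 h, 0 members were called higher (0.0772% of all genes) and 0 lower (0%) by limma. At an unadjusted p under 0.05, 4 members were higher, Slc16a1, Slc16a3, Hk2 and Pfkfb3, and 0 lower. The authors' deposited table called 0 higher (0.723% of its genes) and 0 lower (0.027%). The median log2 fold change was -0.12, against -0.10 for all genes, with 9 of 32 positive (37.7% of all genes). Of the 4 saline libraries, replicates 3 and 4 stood apart with mitochondrial shares of 5.96% and 5.43%, against 17.4% and 22.1% in replicates 1 and 2 and a median of 14.7% in LPS. Without them the median of the members turned to 0.22, against 0.05 for all genes, and 0 members were called in either direction.

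Slc16a1 (chromosome 3, 104638668 to 104658462, plus strand, mm10), singled out after its values were seen, makes a transporter that moves lactate across the membrane. At 72 h its FPKM was 31.5, 29.7, 20.8 and 22.6 in saline. In LPS it was 50.5, 52.1 and 52.2. The 3 LPS libraries were close to each other and far above saline. The log2 fold change was 0.97 ± 0.26, with an unadjusted p of 6.85e-04 and an adjusted p of 0.267 by limma, so it failed the correction. The authors' deposited table gives 0.87 with an adjusted p of 0.0877. In the earlier groups of females it was 22.3 to 35.4 FPKM at 3 h of LPS and 20.3 to 46.8 FPKM at 24 h of LPS. Saline libraries reached 42.5 FPKM in females and 53.8 FPKM in males at 24 h, the latter above all 3 LPS libraries of 72 h.

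Hk2 was the other member without overlap at 72 h (2.34% of all genes for LPS higher, and 3.44% with 0 members for LPS lower), at 0.652, 0.926, 1.12 and 1.21 FPKM in saline and 1.92, 1.36 and 3.03 FPKM in LPS. Its log2 fold change was 0.62 ± 0.24 (adjusted p = 0.801, limma). Slc16a3, a lactate exporter of highly glycolytic cells, was at 0.354, 0.148, 0.999 and 0.397 FPKM in saline and at 1.59, 0.782 and 1.71 FPKM in LPS (0.69 ± 0.26, adjusted p = 0.796). These are low levels, and the groups overlapped. Pfkfb3 had 0.60 ± 0.27 (adjusted p = 0.886). Beside them, the 13 endothelial markers summed to 224 to 437 FPKM in saline and 381 to 463 FPKM in LPS, and the 15 microglia markers to 257 to 617 and 619 to 1036 FPKM, with 0 members of either list called at 72 h. Of 3 blood leukocyte markers, 1 was called higher, Ptprc, the pan-leukocyte antigen CD45, which microglia also express (1.97 ± 0.38, adjusted p = 0.0163, limma). Their sums did not overlap, at 0.734 to 1.67 FPKM in saline and 5.04 to 30.5 FPKM in LPS. The 10 oligodendrocyte markers summed to 680 to 2192 FPKM in saline and 853 to 998 FPKM in LPS, with 0 called. Slc16a1 is known to be expressed by endothelial cells as well as glia, and the part of these cells was not tested.

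Between 72 h and 24 h, 0 members changed their LPS effect by limma, against 0.0206% of all genes higher and 0.324% lower. At an unadjusted p under 0.05, 4 were higher and 2 lower. The largest differences were -1.59 ± 0.54 for Pygm (adjusted p = 0.253) and 1.17 ± 0.35 for Slc16a1 (adjusted p = 0.157). At 72 h Pygm was at 31.6, 30.1, 54.7 and 42.7 FPKM in saline and at 42.3, 28.6 and 15.3 FPKM in LPS, and the groups overlapped. The authors' deposited table does not hold this comparison.

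**Figure D5:**
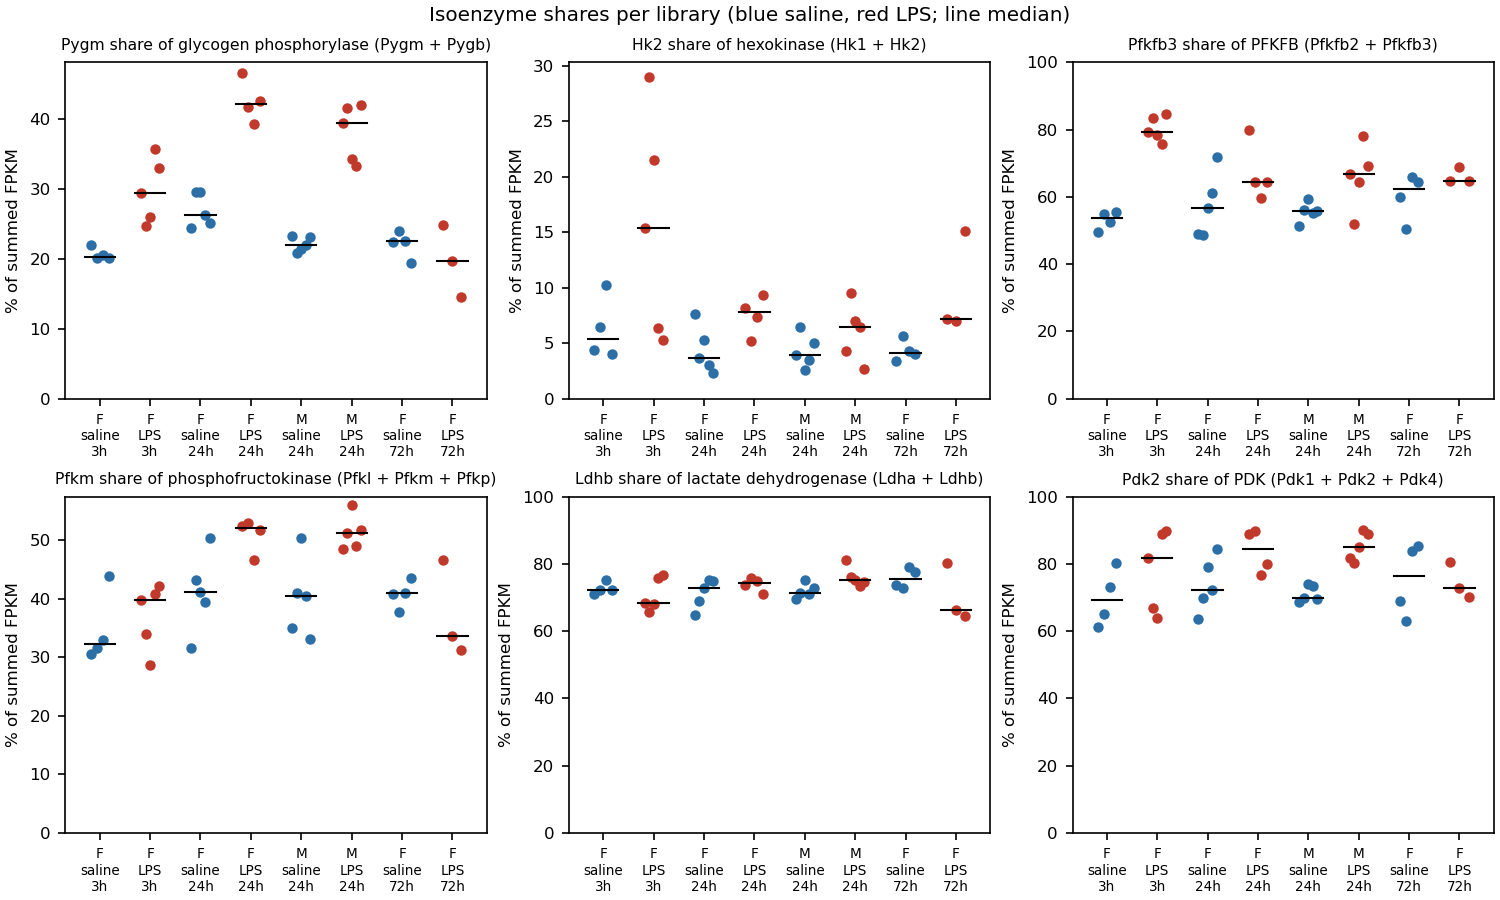
Share of 1 isoenzyme in the summed FPKM of the members of its family, in percent, in each library (points, blue saline, red LPS, line median) for Pygm, Hk2, Pfkfb3, Pfkm, Ldhb and Pdk2. The Pygm share is 39.3% to 46.5% in female LPS and 33.2% to 42.1% in male LPS at 24 h, above all saline libraries, while the Ldhb share stays between 64.6% and 81.1% throughout.

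The Ldhb share was 70.9% to 75.3% in saline and 65.6% to 76.7% in LPS at 3 h, and 69.4% to 75.1% against 73.5% to 81.1% in males at 24 h. Neither Ldha nor Ldhb was called in any comparison, and their log2 fold changes lay between -0.24 and 0.61. At 24 h the Pfkm share of phosphofructokinase was 31.6% to 50.4% in saline and 46.7% to 53.0% in LPS in females, and 33.2% to 50.5% against 48.6% to 56.1% in males, and both pairs overlapped.

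Other genes of the pathway were described in 5 lists, whose counts are read against the shares of all genes called higher (1.94% at 3 h, 2.54% in females and 7.08% in males at 24 h, 0.0772% at 72 h) and lower (0.443%, 0.798%, 1.82% and 0%). Of 14 other glycolysis genes measured, 2 rose in females and 3 in males at 24 h, 0 at 3 h and 0 at 72 h, and 0 fell in any LPS comparison. Slc37a4, the transporter of glucose 6-phosphate into the endoplasmic reticulum, went from 13.8 ± 5.99 FPKM (SD, n = 5) to 144 ± 89.6 FPKM (n = 4) in females, a log2 fold change of 3.11 ± 0.44 (adjusted p = 1.34e-05, limma). In males it went from 12.3 ± 3.42 to 64.3 ± 33.2 FPKM (n = 5 each), or 2.17 ± 0.42 (adjusted p = 0.00111). LPS and saline libraries of Slc37a4 did not overlap in either sex. The insulin-responsive glucose transporter Slc2a4 rose by 1.82 ± 0.42 in females and 1.53 ± 0.40 in males (adjusted p = 0.00783 and 0.015), and the neuronal-type transporter Slc2a3 by 0.98 ± 0.31 in males (adjusted p = 0.0437). In males 13 of 21 alternatives lost the call of Slc2a3 and 6 that of Slc2a4. In the double-precision libraries of females, which hold 1 LPS library, Slc37a4 was at 1.34 and Slc2a4 at 1.41 (adjusted p = 1 for both). With the mitochondrial share as a covariate Slc37a4 kept its call in both sexes (2.60 and 1.14) and Slc2a4 kept it in females only (1.36 and 0.59). The LPS effect in males minus that in females had 0 calls among all genes in that fit.

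Of 22 other glycogen genes, 1 fell in each of the 3 h and 24 h comparisons, and 0 rose. Ugp2 makes UDP-glucose, the donor for glycogen synthesis. Its level was 255 ± 62.2 FPKM (SD, n = 5) in female saline and 109.8 ± 48.8 FPKM (n = 4) in LPS, a log2 fold change of -1.28 ± 0.24 (adjusted p = 7.50e-04, limma). In males it fell by 1.19 on the log2 scale (adjusted p = 0.00105), from 223 ± 43.6 to 96.8 ± 15.0 FPKM (n = 5 each). Ugp2 was lower in every LPS library than in every saline library, in both sexes. Within double-precision libraries its values were -0.61 in females and -0.95 in males (adjusted p = 1 and 0.138). The liver form of phosphorylase, Pygl, fell at 3 h (-0.80 ± 0.22, adjusted p = 0.0376), a call lost in 9 of 18 alternatives.

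Of 18 other pyruvate and lactate genes, 1 rose at 3 h, 1 rose and 1 fell in females at 24 h, and 2 rose in males. The mitochondrial enzyme Pck2 rose at 3 h (0.93 ± 0.25, adjusted p = 0.0304) and in males (1.01 ± 0.23, adjusted p = 0.00656). Gpt2, which interconverts pyruvate and alanine, rose in females (1.05 ± 0.26, adjusted p = 0.0161) and in males (1.23 ± 0.25, adjusted p = 0.0021). The malic enzyme Me3 fell in females (-0.89 ± 0.25, adjusted p = 0.0368). Of 8 pentose phosphate genes, 1 rose, Pgls in males (0.90 ± 0.28, adjusted p = 0.0403), and 0 fell. All of these are limma values. Of 18 alternatives at 3 h, 8 lost the call of Pck2, and of 19 in females at 24 h, 6 lost that of Gpt2 and 9 that of Me3. Of 21 in males, 4 lost that of Pck2, 3 that of Gpt2 and 13 that of Pgls.

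Of 10 regulators of the hypoxia response, 1 rose at 3 h, 1 in females at 24 h, and 2 in males, and 0 fell. Hif3a, a hypoxia-inducible factor subunit with forms that restrain the other subunits, rose in each of these comparisons. It went from 12.9 ± 1.73 FPKM (SD, n = 4) to 30.1 ± 6.05 FPKM (n = 5) at 3 h, a log2 fold change of 1.15 ± 0.31 (adjusted p = 0.0358, limma). That call was lost in 10 of 18 alternatives. At 24 h it rose by 2.11 ± 0.31 in females and 1.90 ± 0.29 in males (adjusted p = 2.34e-05 and 6.54e-05), and the male call held in each of 21 alternatives. Within double-precision libraries of females Hif3a was at 0.73 (adjusted p = 1). Egln2, a prolyl hydroxylase of the same system, rose in males (0.80 ± 0.26, adjusted p = 0.0475), a call lost in 15 of 21 alternatives. At 72 h 0 genes of these lists were called in either direction by limma, and at an unadjusted p under 0.05 the count was 1 higher among the pentose phosphate genes and 1 lower among the glycogen genes.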

How the data were processed

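RNA was amplified with SMART-seq HT and made into libraries with Nextera XT, per the labels' protocols. The deposited FPKM per gene and library were made by the authors with HISAT2 and StringTie on mm10, and their log2 fold changes and adjusted p-values with DESeq2, per the submitters' processing notes. Versions, and any shrinkage of the fold changes, are not given in the sources used here. Depth in reads is unknown, so no interval or floor is given. Of 19584 entries, 11 repeated a gene identifier and the first was kept, and 20 symbols turned into dates were restored.

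The test covered the 19426 genes that reached 1 FPKM in 3 or more libraries. limma 3.58.1 (R 4.3.3) was fitted to log2(FPKM + 1) with 1 coefficient per group and an intensity trend, tested on simulated data first. The moderated test was two-sided, with Benjamini-Hochberg adjustment over genes in each of 8 contrasts. A pseudocount of 1 understates changes of low genes such as Hk2 and Slc16a3. Positions are from GENCODE M21. Members and lists were chosen with earlier results of these data known. Members called in an LPS contrast or a difference of LPS effects were described in full, and of the other lists up to 4 called genes per LPS contrast. Alternatives were a pseudocount of 0.1, no filter, 2 rescalings, fits on the compared groups, a replicate block, the number format, the mitochondrial share and libraries left out.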

Additional observations from a re-analysis of the deposited data

Results flagged for a closer look

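In the 7 groups of 4 or 5 libraries, 10 of 224 sets of a member's values held a library far from the others by Dixon's test, and chance gives about 1 in 20. Male saline replicate 2 had 1.45 FPKM of Hk2, against 0.608 to 0.707 in the others. Male saline replicate 3 had 2518 FPKM of Aldoc (others 1295 to 1644) and 545 FPKM of Ldhb (295 to 355). Female saline replicate 4 at 3 h had 156 FPKM of Pkm (64.1 to 77.9) and 43.9 FPKM of Pygm (21.7 to 25.2). Male LPS replicate 3 had 12.5 FPKM of Pdk4 (17.6 to 19.5). In male LPS replicate 1, Dlat was 16.4 FPKM (12.1 to 13.3) and Ppp1r3c 60.4 FPKM (36.1 to 42.2). Pdha1 in female LPS replicate 3 at 24 h was 58.5 FPKM (52.0 to 52.6). Pdhb in female saline replicate 4 at 24 h was 78.4 FPKM (97.2 to 104).

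The LPS effect on Pfkfb3 in females differed between 24 h and 3 h by a tested log2 difference of -1.63.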

How the results depend on the processing

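No direction of a called value was reversed under any alternative. Of the alternative values, 1459 kept their side of the threshold or stayed within 1.5 times the count, 135 lost a call, 1 gained one and 22 counts moved. When only the compared groups were fitted, 1 member was higher at 3 h and 9 in males at 24 h. In males, 0 were higher within single-precision libraries, within double-precision libraries, with the mitochondrial share as a covariate, and without the LPS libraries of low mitochondrial share. Lower in males was 1 member with quantile normalization (Pdha1) and 1 with the mitochondrial covariate (Eno1). In females at 24 h, 1 was lower with the mitochondrial covariate. For the 24 h minus 3 h difference, 0 were lower within either number format and 2 with the mitochondrial covariate. The cause was not tested, except that the single- and double-precision fits hold fewer libraries. The mitochondrial covariate and the leaving out of libraries with a low share were chosen after seeing the data.

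Leaving out 1 library at a time gave 1 to 5 members higher in males, the count moving without saline replicates 1 and 5 and LPS replicates 2, 4 and 5. It gave 0 to 1 lower in males (without saline replicate 3), 0 to 1 higher in females at 24 h (without LPS replicate 4), 0 to 1 lower (without saline replicate 5), and 0 to 1 higher for 72 h minus 24 h (without LPS replicate 4 of 24 h). At 3 h, 2 were higher throughout. Over all genes, the compared groups alone gave 2224 higher and 545 lower in males. The mitochondrial covariate gave 267 and 76 in males and moved the median of all genes there by -0.11. Leaving out saline replicates 3 and 4 at 72 h moved the median of all genes in that comparison by 0.16.

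No clear pairing of libraries by replicate number was seen, and a check on groups this small cannot exclude one. Correlations of same-numbered deviations ran from -0.40 to 0.37 over 16 pairs, 5 were over 0.1, and 3 were the best match. With the replicate block, 1 member was lower in females at 24 h (Pfkfb2), and the counts for other members and contrasts did not move.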
